A study of Arabidopsis thaliana with 4 samples.

Results

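The genes described here encode the proteins SA to S21 of the small (40S) subunit of the cytosolic ribosome of Arabidopsis thaliana. They are 60 loci for 23 proteins, taken by their locus names from the 23498 loci that have a co-translational RNA decay index in at least 1 of 4 libraries. The index is a ratio without a unit, deposited for each locus and library from GMUCT, short for global mapping of uncapped and cleaved transcripts, which reads the first base of polyadenylated RNAs that have lost their cap. The first group is 2 abh1 libraries, from plants with a loss of function of ABH1, the larger protein of the cap-binding complex in the nucleus. Its titles carry the numbers 1 and 8, and the labels name no allele. The other group is 2 libraries titled Col-0_CHX and labelled wild type, and the labels do not spell out CHX. All libraries are labelled as the Col-0 ecotype and as immature inflorescence from plants of some 4 weeks under days of 16 h light and 8 h dark. For all 4 libraries, the Col-0_CHX ones included, the labels also say that plants had no further treatment, which goes against a CHX in the title if that names one. What CHX stands for in the second group is therefore not settled, and an effect of genotype cannot be told apart from one of CHX, if there was any. No label says that replicates are separate plants, so p-values here reflect the spread of these libraries alone, which may be technical.

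A cytosolic ribosome joins a small subunit, which holds the messenger RNA and reads its codons, to a large subunit, which joins the amino acids. In Arabidopsis nearly every ribosomal protein is encoded by a small family of paralogs, and the messenger RNAs are abundant in dividing tissue such as flower buds. Messenger RNA can lose its cap while ribosomes are still on it, and the exonuclease that then follows the last ribosome leaves ends spaced by codons. The title of the index refers to this kind of decay. The labels and files do not state its formula, so a value is read only as higher or lower than another.

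An index was listed for 22495 and 22492 loci in abh1, for 18321 and 18215 in Col-0_CHX, and for 17049 in each of the 4 libraries. Read depth is unknown, so no counting interval is given. A value that over 10 loci of the same library share exactly is called repeated here, as ratios of small whole numbers are. Repeated values made up 27.2% and 29.3% of the loci in abh1, against 43.6% and 42.7% in Col-0_CHX. Of 8 floral identity genes that mark an inflorescence, each abh1 library listed 8 and each Col-0_CHX library 1, with 0 shared by both Col-0_CHX libraries, whereas 3 of 3 light harvesting and Rubisco genes were listed in all 4. The labelled tissue was therefore not borne out by these markers in the Col-0_CHX libraries, and the part of tissue in the differences below was not tested.

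Each abh1 library listed all 60 loci, and 56 of them (93.3%) were listed by each Col-0_CHX library too. For the 21858 loci of any kind that each abh1 library listed, this share was 78.0%. The 4 exceptions were 1 locus each of S2, S8, S11 and S15a. AT1G59359 (S2) had 1.05 and 1.03 in abh1 and no value in Col-0_CHX, and AT2G39590 (S15a) had 0.750 and 0.917 in abh1 and likewise none in Col-0_CHX. AT5G59240 (S8) had 0.956 and 1.17 in abh1 and 2.00 in 1 Col-0_CHX library, a value held there by 305 loci. AT4G30800 (S11) had 1.05 and 1.18 in abh1 and 0.667 in 1 Col-0_CHX library, a value held there by 68 loci. The libraries are of whole tissue, and their read depth and the read minimum of the index are unknown. Fewer cells of a type, less RNA per cell and fewer reads in a library cannot be told apart as reasons for a missing value. Repeated values were held by 4 and 2 of the 60 loci in the abh1 libraries, against 13 of 58 and 18 of 56 in the Col-0_CHX libraries. No repeated value in any library was found for 31 of the 56. The other 25 had one in some library, and not all of them are marked where they are named below.

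These ribosomal protein genes lay in the middle of all genes in abh1 and in the lower part in Col-0_CHX. The 56 loci had a median index of 1.14 and 1.13 for abh1 and of 1.20 and 1.18 for Col-0_CHX. Over all 17049 loci the medians were 1.15 and 1.14 for abh1, against 1.37 and 1.29 for Col-0_CHX. Of the 56, 27 and 26 were above the library median in abh1, against 19 and 19 in Col-0_CHX. Percentiles were taken among all loci of a library, over the ribosomal protein loci it listed (60 and 60 in abh1, 58 and 56 in Col-0_CHX). Their median percentile was 50.5 and 49.6 for abh1, against 34.8 and 39.2 for Col-0_CHX. An index above 1 was held in all 4 libraries by 35 of the 56, and an index below 1 in all 4 by AT5G20290 (S8) only. This share was not taken over all loci, whose medians were above 1 in each library too, so it does not set the genes apart.

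**Figure D1:**
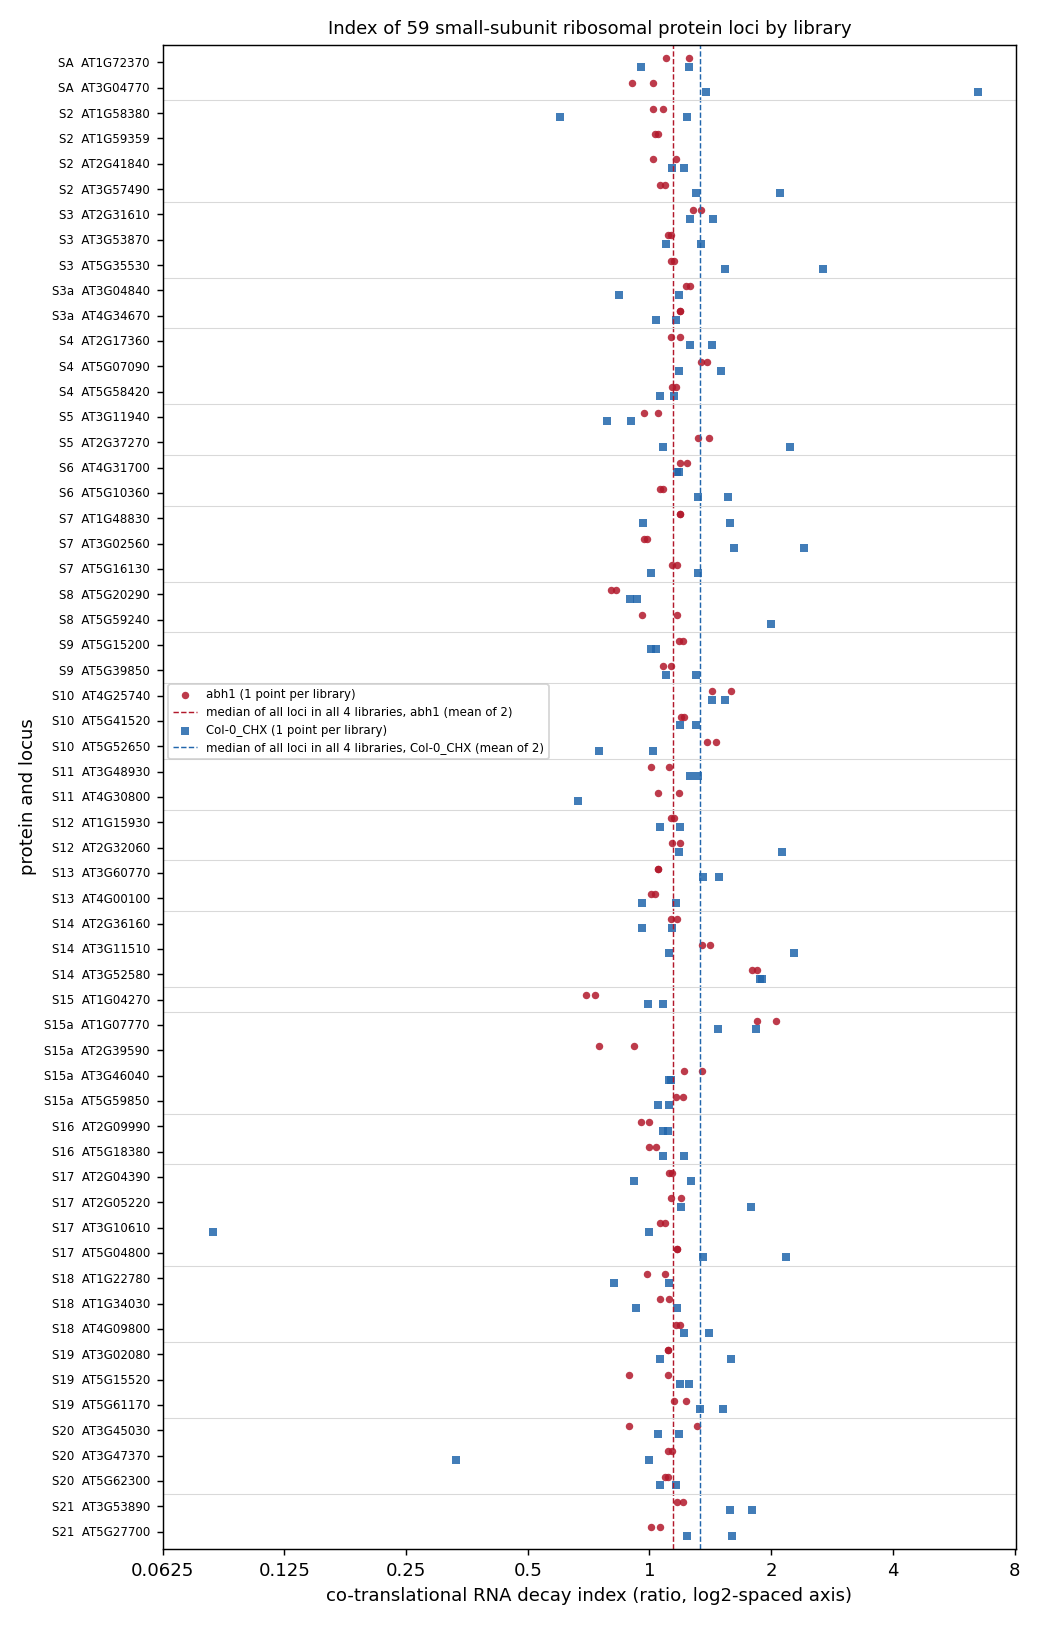
Index of 59 of the 60 loci on a log2-spaced axis, with 1 point per library (abh1 as red circles above, Col-0_CHX as blue squares below in each row) and dashed lines at the median of all loci. The abh1 points of a locus lie close together around the abh1 median, between 0.698 and 2.06 for those in all 4 libraries, while the Col-0_CHX points of these loci run from 0.0833 to 6.5.

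The abh1 libraries gave close values for most of these genes, and the Col-0_CHX libraries lay further apart. The median absolute log2 difference between both libraries of a group was 0.051 in abh1 and 0.24 in Col-0_CHX over the 56 loci, against 0.14 and 0.32 over all 17049. Without repeated values it was 0.051 in abh1 over the 31 loci, against 0.095 over the 6572, while in Col-0_CHX the 0.20 of the 31 was close to the 0.19 of the 6572. AT3G45030 (S20) was the only 1 of 56 whose abh1 libraries differed by over 0.5 on the log2 scale, against 14 of 56 in Col-0_CHX. Over all loci 12.3% in abh1 and 35.3% in Col-0_CHX differed by that much. Across the 56 genes, which are not independent replicates, Pearson's r of log2 values between both libraries was 0.87 in abh1 and 0.28 in Col-0_CHX. Over the 31 without repeated values it was 0.96 in abh1 and 0.23 in Col-0_CHX, and over all 17049 loci 0.43 and 0.24. Spearman's rank correlation, which extreme values sway less, was 0.79 in abh1 and 0.48 in Col-0_CHX over the 56. Over the 31 it was 0.89 and 0.42. Among themselves the genes had an interquartile range of the log2 index of 0.17 and 0.19 in abh1, where all loci had 0.34 and 0.34. In Col-0_CHX it was 0.49 and 0.33 for the 56, against 0.64 and 0.61 over all loci. The SD of the log2 index was 0.24 and 0.22 in abh1, where all loci had 0.40 and 0.40, and 0.46 and 0.69 in Col-0_CHX, where all loci had 0.67 and 0.65. By SD the genes thus varied more than all loci in the second Col-0_CHX library, but by interquartile range they varied less. Over the 31 without repeated values the SD in that library was 0.29.

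**Figure D2:**
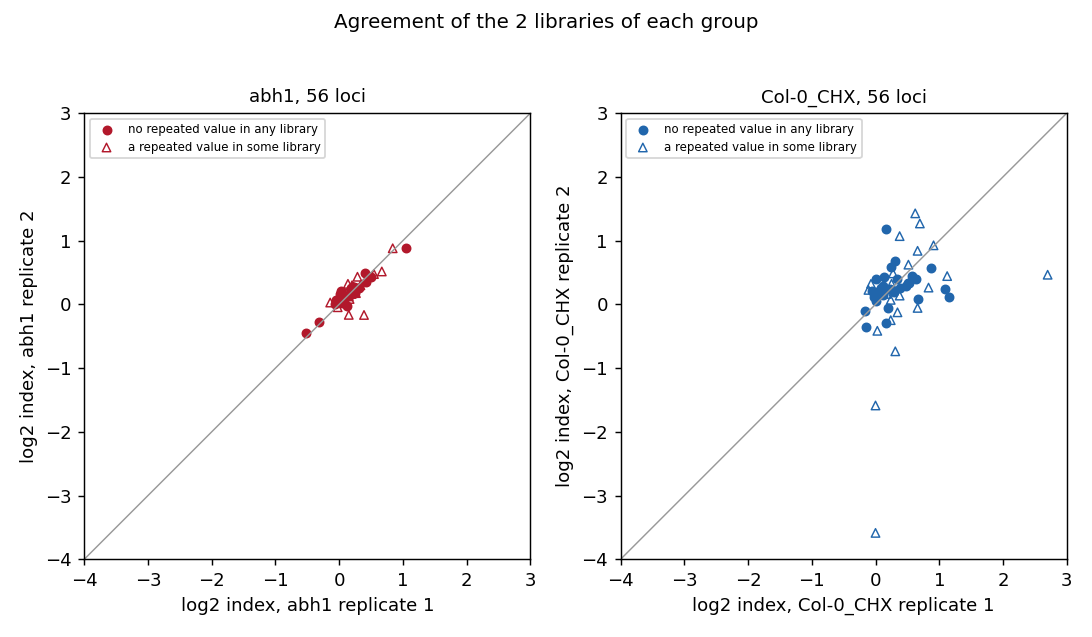
Log2 index of the 56 loci in replicate 1 (x axis) and replicate 2 (y axis), for abh1 on the left and Col-0_CHX on the right, with the line of equality. Filled circles have no repeated value in any library and open triangles have one in some library, and the points hug the line in abh1 (r = 0.87) but scatter in Col-0_CHX (r = 0.28).

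None of the 56 genes that could be tested differed between the groups past the test. Over the 17049 loci in all 4 libraries, limma's moderated test with Benjamini-Hochberg adjustment called 0 loci (0%), and 0 of these 56, which does not show that the groups were alike. At an unadjusted p under 0.05 there were 4 of 56 lower in abh1 and 1 higher, where 17.2% and 2.84% of all loci were. The median log2 difference, abh1 minus Col-0_CHX, was -0.057 over the 56 and -0.23 over all loci. The genes therefore lay 0.17 above the shift of all loci, and 0.098 above it over loci without repeated values. Their own median was -0.12 over those loci and 0.16 after centring each library. Of the 56, 35 (62.5%) were lower in abh1 and 21 higher, where 72.2% of all loci were lower. With each library centred on its median the split was 16 lower and 40 higher, and with quantile normalization 18 lower and 38 higher. Both abh1 libraries lay below both Col-0_CHX libraries for 21 loci (37.5%), against 45.2% of all loci, and above both for 11 (19.6%), against 10.7% of all loci. An absolute log2 difference over 0.5 was found for 9 of the 56 (16.1%), against 34.0% of all loci.

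Over the 6572 loci without repeated values, where 8.63% were called by limma, 0 of the 31 ribosomal protein loci passed, with 8.03% of these loci called lower and 0.593% called higher in abh1. At an unadjusted p under 0.05 there were 4 of 31 lower and 0 higher, where 29.5% and 3.09% of these loci were. By sign alone 20 of 31 were lower, against 77.0% of these loci. The nearest was RPS15 (AT1G04270), with an adjusted p of 0.0559. Single Col-0_CHX libraries decided this count, since 3 of 31 passed without replicate 1, where 17.3% of loci did, and 6 of 31 without replicate 2, where 29.8% did. All of these were lower in abh1, and RPS15 was the locus that passed in both cases. Fits without an abh1 library do not set these genes apart from other loci. The log2 difference of RPS15 was -0.49 without the first abh1 library and -0.57 without the second. In these fits the lone library of a group is assumed to vary like those of the other group.

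**Figure D3:**
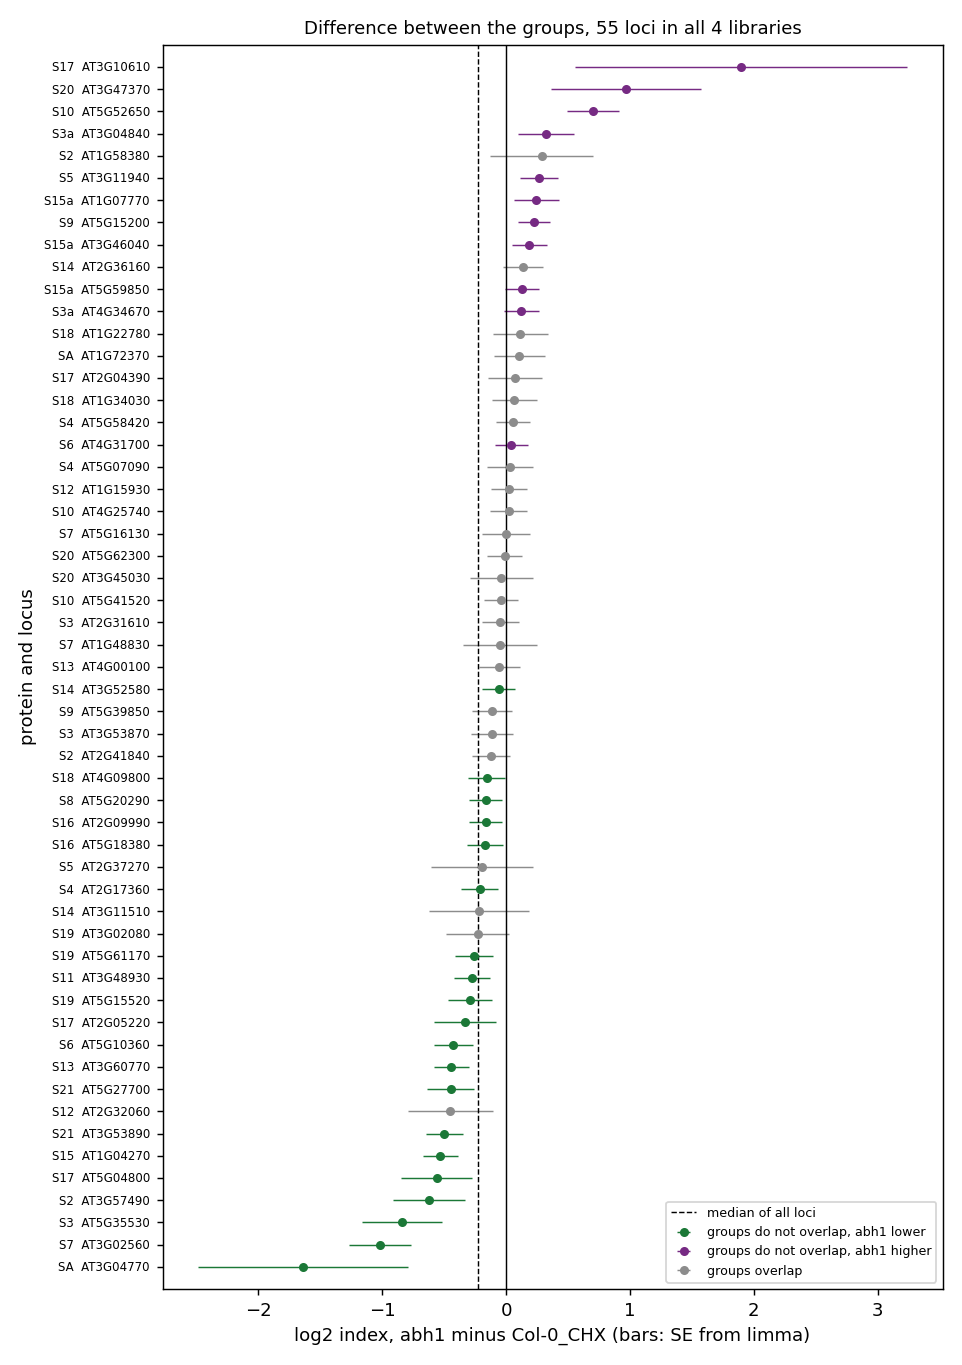
Log2 index, abh1 minus Col-0_CHX, of 55 of the 56 loci in all 4 libraries, ordered by size, with SE bars from limma. Green and purple points mark loci whose groups do not overlap (20 lower and 11 higher in abh1 among those drawn), grey points those that do, and the dashed line is the median of all loci at -0.23.

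The level of each gene was also set against the median of its library. Both groups were fitted together with a shared variance per locus. An SE or p of an abh1 level therefore also reflects the Col-0_CHX spread, and the reverse. Over all 17049 loci limma called 0 loci in either group, and 0 of the 56, with 5 of 56 in abh1 and 12 of 56 in Col-0_CHX at an unadjusted p under 0.05, where 9.97% and 24.2% of all loci were. Over the 6572 loci without repeated values, 1 of the 31 was above the median in abh1 and 1 below, where 0.974% and 1.07% of loci were called. In Col-0_CHX 0 of the 31 were called above and 3 below, where 9.31% and 6.15% were. In abh1 these were RPS15A (AT1G07770), at 0.77 ± 0.093 (SE) above the median on the log2 scale (limma adjusted p = 0.0476), and RPS15, at -0.68 ± 0.083 (SE) (limma adjusted p = 0.0488). Those below the median in Col-0_CHX were RPS5A (AT3G11940) at -0.67 ± 0.075 (SE), AT5G20290 of S8 at -0.54 ± 0.073 (SE) and AT5G15200 of S9 at -0.38 ± 0.072 (SE), with limma adjusted p of 0.0233, 0.0279 and 0.0426. Fits of these 31 levels without an abh1 library do not set them apart from other loci. Without the first Col-0_CHX library 3 of 31 passed in abh1 and 5 of 31 in Col-0_CHX, where 7.47% and 21.5% of loci did. Without the second, 3 of 31 passed in abh1 and 12 of 31 in Col-0_CHX, where 7.47% and 26.1% did.

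Proteins S2, S3 and S9 surround the channel through which messenger RNA enters the small subunit, as known from yeast and mammals. Of their 8 loci in all 4 libraries, 6 were lower and 2 higher in abh1, where 72.2% of all loci were lower. Their median log2 difference was -0.11, or 0.11 relative to the shift of all loci. The S3 loci had a spread of 0.22 on the log2 scale in abh1 and 0.75 in Col-0_CHX, taking the highest minus the lowest locus. AT2G31610 was at 1.34 and 1.28 in abh1, and at 1.44 and 1.26 in Col-0_CHX. AT3G53870 was at 1.13 and 1.11 in abh1, and at 1.10 and 1.34 in Col-0_CHX. AT5G35530 was at 1.15 and 1.13 in abh1, and at 1.54 and 2.69 in Col-0_CHX. Its Col-0_CHX values both lay above its abh1 values, with a log2 difference of -0.84 ± 0.33 (SE) that did not pass (limma adjusted p = 0.278), and its first Col-0_CHX value was repeated. It was the middle of the 3 S3 loci in each abh1 library and the highest in each Col-0_CHX library.

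The S2 loci sat together in abh1. XW6 (AT1G58380) was at 1.08 and 1.02 in abh1, and at 1.24 and 0.6 in Col-0_CHX. AT2G41840 was at 1.02 and 1.16 in abh1, and at 1.22 and 1.14 in Col-0_CHX. Both loci overlapped between the groups. AT3G57490 was at 1.06 and 1.09 in abh1, and at 1.30 and 2.10 in Col-0_CHX, which is a difference of -0.62 ± 0.29 (SE) on the log2 scale (limma adjusted p = 0.333). Both of its Col-0_CHX values were repeated, the first at 63 loci and the second at 21. The abh1 values of AT1G59359 were held exactly by AT1G58684 and AT1G58983, both outside the 60 loci and picked here for that identity. In Col-0_CHX AT1G58684 had 3.25 and 1.4 and AT1G58983 had 1.39 and 0.918. Loci with equal values may share reads, so a single value of AT1G59359 is uncertain, and this was the one case of equal values in both abh1 libraries among the 60.

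For S9, AT5G15200 was at 1.18 and 1.21 in abh1, and at 1.01 and 1.04 in Col-0_CHX. The groups did not overlap, and the means were 1.19 ± 0.027 in abh1 and 1.02 ± 0.022 in Col-0_CHX (SD, n = 2 each). The log2 difference of 0.23 ± 0.13 (SE) did not pass (limma adjusted p = 0.414). AT5G39850 was at 1.08 and 1.13 in abh1, and at 1.30 and 1.10 in Col-0_CHX, and overlapped. In both abh1 libraries AT5G15200 was the higher S9 paralog, and in both Col-0_CHX libraries AT5G39850 was.

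Proteins SA, S3a, S5, S7, S13, S14 and S21 lie on the exit side and the platform of the subunit in yeast and mammals. Their 16 loci all had values in the 4 libraries, 11 (68.8%) lower and 5 higher in abh1, against 72.2% lower over all loci. Their median log2 difference was -0.057, or 0.17 relative to that shift. An S14 paralog was high in all 4 libraries, though 33 loci shared its second Col-0_CHX value. AT3G52580 was at 1.79 and 1.84 in abh1, and at 1.88 and 1.90 in Col-0_CHX, with a log2 difference of -0.060 ± 0.13 (SE) that turns positive after centring or quantile normalization (limma adjusted p = 0.823). It ranked at percentiles 93.7 and 94.4 of all loci in abh1, against 80.2 and 84.6 in Col-0_CHX. The S14 paralog AT3G11510 was at 1.41 and 1.35 in abh1, and at 1.12 and 2.28 in Col-0_CHX. AT2G36160 was at 1.17 and 1.13 in abh1, and at 1.14 and 0.956 in Col-0_CHX. The order of the 3 paralogs was the same in both abh1 libraries, while AT3G11510 was the lowest of the 3 in one Col-0_CHX library and the highest in the other.

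SA, related to the laminin receptor of animals, had 1 paralog with an extreme Col-0_CHX value. P40 (AT1G72370) was at 1.10 and 1.25 in abh1, and at 0.952 and 1.25 in Col-0_CHX. RPSAb (AT3G04770) was at 0.907 and 1.02 in abh1, and at 6.5 and 1.38 in Col-0_CHX. The value of 6.5 was the highest of all 60 loci, but 19 loci of that library shared it and 69 shared the other. The log2 difference of RPSAb was -1.64 ± 0.85 (SE) (limma adjusted p = 0.370), and it was -0.52 without the first Col-0_CHX library and -2.76 without the second.

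Both S3a loci were higher in abh1 without overlap. AT3G04840 was at 1.26 and 1.23 in abh1, and at 1.18 and 0.842 in Col-0_CHX, which is a difference of 0.32 ± 0.22 (SE) on the log2 scale (limma adjusted p = 0.479). AT4G34670 was at 1.19 and 1.19 in abh1, and at 1.04 and 1.16 in Col-0_CHX.

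S5 showed the same order of paralogs in all 4 libraries. RPS5A was at 0.971 and 1.05 in abh1, and at 0.899 and 0.784 in Col-0_CHX. RPS5B (AT2G37270) was at 1.32 and 1.4 in abh1, and at 2.23 and 1.08 in Col-0_CHX. RPS5A, known for its promoter, which is used to drive genes in dividing cells, was the lower in each library, by 0.44 and 0.41 on the log2 scale in abh1 and by 1.31 and 0.46 in Col-0_CHX. The group difference of RPS5A was 0.27 ± 0.16 (SE) on the log2 scale (limma adjusted p = 0.414), higher in abh1 without overlap.

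Of the S7 loci, AT3G02560 stood apart from the others in the comparison of groups. It was at 0.984 and 0.969 in abh1, and at 1.62 and 2.41 in Col-0_CHX, which is a difference of -1.01 ± 0.25 (SE) on the log2 scale. This was the smallest adjusted p among the 56 over all loci (limma adjusted p = 0.188), and 12 loci shared its first Col-0_CHX value. AT1G48830 was at 1.19 and 1.19 in abh1, and at 1.58 and 0.962 in Col-0_CHX. AT5G16130 was at 1.17 and 1.14 in abh1, and at 1.01 and 1.32 in Col-0_CHX. AT3G02560 was thus the lowest S7 paralog in both abh1 libraries and the highest in both Col-0_CHX libraries.

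S13 and S21 had a paralog order that held in each library. AT3G60770 (S13) was at 1.05 and 1.05 in abh1, and at 1.49 and 1.36 in Col-0_CHX. RPS13A (AT4G00100), known from the leaf shape mutant pointed first leaf, was at 1.03 and 1.01 in abh1, and at 0.961 and 1.16 in Col-0_CHX. AT3G60770 was lower in abh1 without overlap, with a log2 difference of -0.44 ± 0.14 (SE) that did not pass (limma adjusted p = 0.231). Within abh1 the S13 paralogs differed by no more than 0.052 on the log2 scale, and in Col-0_CHX by 0.63 and 0.22. For S21, AT3G53890 was at 1.17 and 1.21 in abh1, and at 1.58 and 1.79 in Col-0_CHX, and 112 loci shared its first abh1 value. AT5G27700 was at 1.01 and 1.06 in abh1, and at 1.24 and 1.60 in Col-0_CHX. Both S21 loci were lower in abh1 without overlap, by log2 differences of -0.50 ± 0.15 and -0.45 ± 0.19 (SE) that did not pass (limma adjusted p = 0.221 and 0.302).

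Proteins S10, S12 and S15 to S20 other than S15a form most of the head and beak, which swing as transfer RNAs move through the subunit. Of their 21 loci, 13 (61.9%) were lower and 8 higher in abh1, against 72.2% lower over all loci. Their median log2 difference was -0.041, or 0.19 relative to that shift. RPS15 is the single S15 locus among the 60, and its protein lies near the decoding site. It was at 0.698 and 0.733 in abh1, and at 0.989 and 1.08 in Col-0_CHX. Its abh1 values were the lowest of the 56 loci in each abh1 library, at percentiles 7.20 and 8.10 of all loci, against percentiles 16.0 and 28.0 in Col-0_CHX. The means were 0.715 ± 0.025 in abh1 and 1.03 ± 0.063 in Col-0_CHX (SD, n = 2 each). The log2 difference of -0.53 ± 0.14 (SE) did not pass over all loci (limma adjusted p = 0.198), and relative to the shift of all loci it was -0.30.

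S10 sits at the beak, and its paralogs kept 1 leader. AT4G25740 was at 1.59 and 1.43 in abh1, and at 1.43 and 1.54 in Col-0_CHX. RPS10B (AT5G41520) was at 1.22 and 1.20 in abh1, and at 1.30 and 1.19 in Col-0_CHX. AT5G52650 was at 1.46 and 1.39 in abh1, and at 1.02 and 0.750 in Col-0_CHX. AT5G52650 alone of the 3 had no overlap between groups, with means of 1.42 ± 0.051 in abh1 and 0.883 ± 0.19 in Col-0_CHX (SD, n = 2 each). Its log2 difference of 0.71 ± 0.21 (SE) did not pass (limma adjusted p = 0.223), and 160 loci shared its value of 0.750. AT4G25740 was the highest S10 paralog in each of the 4 libraries, with a log2 difference of 0.020 ± 0.15 (SE) (limma adjusted p = 0.949).

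S16 reaches with its tail to the transfer RNA in the peptidyl site, and its paralogs lay close together in both groups, with a spread of 0.061 on the log2 scale in abh1 and 0.066 in Col-0_CHX. AT2G09990 was at 0.952 and 1.00 in abh1, and at 1.08 and 1.11 in Col-0_CHX. AT5G18380 was at 0.997 and 1.04 in abh1, and at 1.08 and 1.22 in Col-0_CHX. Both were lower in abh1 without overlap, with log2 differences of -0.16 ± 0.13 and -0.17 ± 0.15 (SE), which are smaller in size than the shift of all loci and turn positive after centring. Their limma adjusted p were 0.542 and 0.564.

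The S17 paralogs were nearly equal in abh1 and far apart in Col-0_CHX. AT2G04390 was at 1.14 and 1.12 in abh1, and at 1.27 and 0.917 in Col-0_CHX. AT2G05220 was at 1.20 and 1.13 in abh1, and at 1.78 and 1.20 in Col-0_CHX. AT5G04800 was at 1.17 and 1.17 in abh1, and at 2.18 and 1.36 in Col-0_CHX. These 3 lay above the remaining paralog in all 4 libraries. AT3G10610 was at 1.06 and 1.09 in abh1, and at 1.00 and 0.0833 in Col-0_CHX, and 468 loci shared the value of 1.00. Its log2 difference of 1.89 ± 1.34 (SE) was the largest of the 56 in size and did not pass (limma adjusted p = 0.488). It rests on 1 library, since it was 0.10 without the second Col-0_CHX library and 3.69 without the first. For AT5G04800 it was -0.56 ± 0.28 (SE) (limma adjusted p = 0.363), with repeated values in both groups.

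S18, whose RPS18A locus PFL (AT1G22780) is named for pointed first leaves, had values near 1. PFL was at 1.09 and 0.987 in abh1, and at 1.12 and 0.816 in Col-0_CHX. AT1G34030 was at 1.12 and 1.06 in abh1, and at 0.926 and 1.17 in Col-0_CHX. RPS18C (AT4G09800) was at 1.16 and 1.19 in abh1, and at 1.4 and 1.22 in Col-0_CHX. RPS18C was the highest of the 3 in each library and the only one without overlap between the groups, lower in abh1 but not after centring or quantile normalization.

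For S12, AT1G15930 was at 1.15 and 1.13 in abh1, and at 1.06 and 1.19 in Col-0_CHX. AT2G32060 was at 1.14 and 1.19 in abh1, and at 2.13 and 1.18 in Col-0_CHX. Both S12 loci overlapped between the groups, and only the first Col-0_CHX library set them apart.

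All 3 loci of S19, whose human form is mutated in an inherited anemia, were lower in abh1, though AT5G61170 turns positive after quantile normalization. AT3G02080 was at 1.11 and 1.11 in abh1, and at 1.59 and 1.06 in Col-0_CHX. AT5G15520 was at 1.11 and 0.892 in abh1, and at 1.19 and 1.25 in Col-0_CHX. AT5G61170 was at 1.15 and 1.23 in abh1, and at 1.52 and 1.33 in Col-0_CHX. The groups overlapped for AT3G02080 and not for the other S19 loci, whose second Col-0_CHX values were repeated.

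The S20 loci held the widest gap between abh1 libraries. AT3G45030 was at 1.31 and 0.891 in abh1, and at 1.18 and 1.05 in Col-0_CHX. AT5G62300 was at 1.11 and 1.09 in abh1, and at 1.06 and 1.16 in Col-0_CHX. AT3G47370 was at 1.11 and 1.14 in abh1, and at 1.00 and 0.333 in Col-0_CHX. AT3G47370 was higher in abh1 without overlap, by 0.96 ± 0.60 (SE) on the log2 scale (limma adjusted p = 0.441), and both of its Col-0_CHX values were repeated, at 468 and 60 loci. The difference was 0.17 without the second Col-0_CHX library and 1.76 without the first.

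Proteins S4, S6, S8, S11 and S15a belong to the body of the subunit. Of their 11 loci in all 4 libraries, 5 (45.5%) were lower and 6 higher in abh1, against 72.2% lower over all loci. Their median log2 difference was 0.036, or 0.26 relative to that shift. S15a gave the highest value in abh1. RPS15A was at 2.06 and 1.84 in abh1, and at 1.83 and 1.48 in Col-0_CHX. RPS15AD (AT3G46040) was at 1.22 and 1.35 in abh1, and at 1.13 and 1.12 in Col-0_CHX, and 88 loci shared its second Col-0_CHX value. AT5G59850 was at 1.16 and 1.21 in abh1, and at 1.05 and 1.12 in Col-0_CHX. All 3 were higher in abh1 without overlap, RPS15A only narrowly, at 1.84 against 1.83. Their order was the same in all 4 libraries. In the second Col-0_CHX library RPS15AD led AT5G59850 by only 0.0085 on the log2 scale. RPS15A exceeded AT5G59850 by 0.82 and 0.61 on the log2 scale in abh1, and by 0.80 and 0.40 in Col-0_CHX. The group differences were 0.25 ± 0.18 (SE) for RPS15A and 0.19 ± 0.14 (SE) for RPS15AD on the log2 scale, and did not pass (limma adjusted p = 0.509 and 0.512). AT2G39590, listed in abh1 only, was below the other S15a loci there, but both of its values were repeated.

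S6 is the ribosomal protein phosphorylated downstream of the growth regulator TOR. RPS6 (AT4G31700) was at 1.24 and 1.19 in abh1, and at 1.17 and 1.18 in Col-0_CHX. EMB3010 (AT5G10360), the other S6 locus, was at 1.06 and 1.08 in abh1, and at 1.56 and 1.32 in Col-0_CHX. EMB3010 was lower in abh1 without overlap, with a log2 difference of -0.42 ± 0.16 (SE) that did not pass (limma adjusted p = 0.267). RPS6 was the higher paralog in both abh1 libraries and EMB3010 in both Col-0_CHX libraries.

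The S4 loci had a spread of 0.24 on the log2 scale in abh1 and 0.28 in Col-0_CHX. AT2G17360 was at 1.19 and 1.13 in abh1, and at 1.43 and 1.26 in Col-0_CHX. AT5G07090 was at 1.39 and 1.34 in abh1, and at 1.18 and 1.5 in Col-0_CHX. AT5G58420 was at 1.14 and 1.16 in abh1, and at 1.06 and 1.15 in Col-0_CHX. Only AT2G17360 had no overlap between the groups, and it was lower in abh1, though not after centring or quantile normalization.

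AT5G20290 of S8 was at 0.805 and 0.825 in abh1, and at 0.895 and 0.931 in Col-0_CHX. With means of 0.815 ± 0.014 in abh1 and 0.913 ± 0.025 in Col-0_CHX (SD, n = 2 each), it was low in both groups. It was lower in abh1 without overlap, with a log2 difference of -0.16 ± 0.13 (SE) that turns positive after centring (limma adjusted p = 0.541). For S11, EMB1080 (AT3G48930) was at 1.01 and 1.12 in abh1, and at 1.26 and 1.32 in Col-0_CHX. EMB1080 was lower in abh1 without overlap, with a log2 difference of -0.27 ± 0.14 (SE) that did not pass (limma adjusted p = 0.380).

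Paralogs of a protein were closer to each other in abh1 than in Col-0_CHX, but so were loci of any kind. The interquartile range of the log2 index over all loci was 0.64 and 0.61 for the Col-0_CHX libraries, while both abh1 libraries had 0.34. Whether the difference in spread is particular to paralogs was not tested. The spread of a protein is the highest minus the lowest log2 index among its loci, from the mean of both libraries. Its median was 0.19 in abh1 over 22 proteins, a 1.14-fold range, against 0.50 in Col-0_CHX over 21 proteins, a 1.42-fold range. Over loci in all 4 libraries, 18 of 21 proteins had a wider spread in Col-0_CHX and 3 of 21, S15a and S19 among them, in abh1. Each Col-0_CHX library exceeded each abh1 library for 10 of 21 proteins, and the reverse held for 0. The libraries of a group differed by a median of 0.051 in abh1 and 0.24 in Col-0_CHX on the same scale, and the part of this in the spread was not tested. S14 and S15a had the widest spread in abh1 over these loci, at 0.66 and 0.72, against 0.85 and 0.60 in Col-0_CHX.

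Among 46 pairs of paralogs with values in all 4 libraries, 37 kept their order in both abh1 libraries, 33 in both Col-0_CHX libraries and 20 in all 4. The highest paralog was the same in all 4 libraries for 7 of 21 proteins. These were RPS5B for S5, AT4G25740 for S10, AT3G60770 for S13, RPS15A for S15a, AT5G18380 for S16, RPS18C for S18 and AT3G53890 for S21. The lead of AT5G18380 was only 0.0018 on the log2 scale in the first Col-0_CHX library. The loci of a protein lay on the same side of 0 in the group comparison for 9 of these 21 proteins, 7 with each locus lower in abh1 and 2, S3a and S15a, with each locus higher. In the other 12 the loci pointed both ways. As 72.2% of all loci were lower in abh1, loci of any kind often share a side. Whether paralogs do so more often was not tested. After centring, 2 proteins (S19 and S21) had each locus lower and 10 had each locus higher, and after quantile normalization 2 (S16 and S21) and 9. S21 as lower in abh1, and S3a and S15a as higher, held under all of these scalings, though each of them has a locus with a repeated value. Because paralogs can share reads where their sequences are near-identical, values of single loci remain uncertain.

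**Figure D4:**
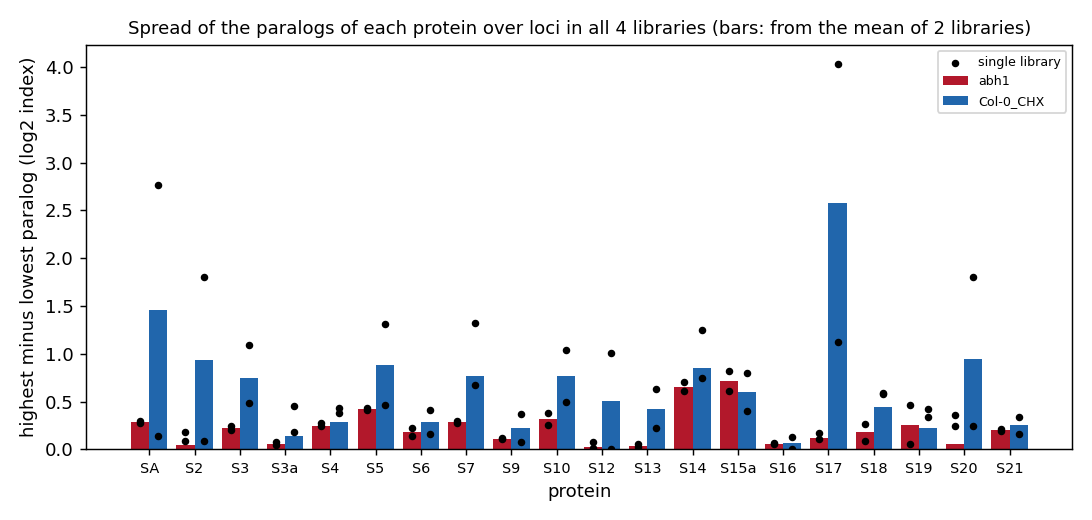
Highest minus lowest log2 index among the paralogs of 20 proteins, over loci in all 4 libraries, for abh1 (left bar) and Col-0_CHX (right bar), with a black point for each library. The Col-0_CHX bar is higher for 18 of these 20 proteins, most for S17 at 2.58 against 0.12 in abh1.

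The other proteins of the small subunit, S23 to S30 and RACK1, are given for comparison. Of 29 loci, 26 were in all 4 libraries, 18 (69.2%) lower and 8 higher in abh1, against 72.2% lower over all loci. Their median log2 difference was -0.14, or 0.089 relative to the shift of all loci, and 0 passed limma's test over all loci. Over loci without repeated values 1 of 13 passed, where 8.63% of loci did. Of 8 further loci of S15, S15a and S16 outside the 60, 8 were listed by both abh1 libraries and 4 by both Col-0_CHX libraries, and these 4 were lower in abh1.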

How the data were processed

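Each library has 1 deposited file, in which the authors give every gene model a linear ratio, the index. Per the submitters' processing notes, cutadapt 1.4.2, STAR 2.4.0 and the TAIR10 genome were used. How the index was computed, its read minimum and its annotation are not stated. Symbols were looked up in RefSeq's gene table (assembly TAIR10.1) by locus name. It held all 60 loci, gave 16 a symbol of their own and named a ribosomal protein for 14. The other loci were assigned to proteins by the naming in use for Arabidopsis, and near-identical copies were not resolved.

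Indices were put on the log2 scale without a pseudocount, since none was 0. limma 3.58.1 in R 4.3.3 (lmFit, eBayes, no covariate) was fitted over all 17049 loci in all 4 libraries, with a Benjamini-Hochberg adjusted p under 0.05. A second fit used the 6572 loci without a value shared by over 10 loci of a library. Python 3.11.15 did the rest. Tested on simulated data, both fits recovered the size of known changes, but the fit over all loci called none of them, so its lack of calls does not show that genes were alike. Values are given for 59 of the 60 loci, and 1 locus, kept in the counts, is not reported here. Statistics are given for the 8 largest differences in each direction without overlap, the 3 highest and 3 lowest of each group and a few picked after their values were seen. Members, lists and tests were chosen with earlier results of these data known. A list of large-subunit proteins was planned but not used here, since the name table has no descriptions. Protein and promoter sequences were not used here.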

Additional observations from a re-analysis of the deposited data

How the results depend on the processing

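The number of loci past limma's test over all loci was 0 of 56, and it stayed at 0 under every alternative tried for it. The number tested was 58 where 1 value per group was enough, and 31 without repeated values. With all 4 libraries kept, 0% of loci of any kind passed either, apart from 8.63% without repeated values. Where 0% passed, the number past the test does not set these genes apart. Over loci without repeated values it was 0, but 1 of 27 (RPS15) when a value shared by over 5 loci counted as repeated, where 13.1% of loci passed, 2 of 31 (RPS15 and AT3G60770) at a threshold of 0.1, where 22.3% did, and 0 to 6 with 1 library left out. The replicate number gave no pairing, since deviations of same-numbered libraries correlated at -0.0043 over all loci. With a replicate block 0 of 56 and 0 of 31 passed, where 0% and 3.29% of loci did. The median log2 difference of -0.057 reversed to 0.16 both after centring each library and after quantile normalization. It was -0.12 over loci without repeated values, -0.088 as a mean, and -0.12 to -0.062 with 1 library left out. Relative to all loci, 0.17 became 0.098 over loci without repeated values and ranged from 0.12 to 0.16 with 1 library left out. The number lower in abh1, 35, was 16 after centring, 18 after quantile normalization and 20 of 31 over loci without repeated values. For levels, the calls of both groups were added, so a locus called in both groups counts in each. Over all loci there were 0 calls among the 56. Against an index of 1 there were 8 of 56 (all higher in Col-0_CHX, where 22.9% of loci were called higher). Over loci without repeated values there were 5 calls. These were 2 of 31 in abh1 and 3 of 31 in Col-0_CHX, where 2.04% and 15.5% of loci were called. Over these loci there were 0 to 15 calls with 1 library left out, a choice made after seeing the data. The median spread within a protein in abh1, 0.19, was 0.18 over loci without repeated values and over loci in all 4 libraries (the latter chosen after seeing the data), 0.16 as a mean over pairs, and 0.22 to 0.23 in single libraries. In Col-0_CHX it ranged from 0.40 to 0.54 over its alternatives. Of the named differences, AT4G25740 reversed to -0.057 without the first abh1 library and -0.030 without the first Col-0_CHX library. AT3G52580 reversed to 0.16 after centring and 0.58 after quantile normalization, and AT5G20290 to 0.057 after centring. Centring by construction removes the shift of all loci, and the cause of the other changes was not tested. The depth behind single values is unknown.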
